A study of Mus musculus with 18 samples.

Results

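*Aspdh*, *Gm11620* and *Ccbe1* are 3 genes whose RNA level changed in the mouse embryonic cortex after deletion of *Mettl3*. They were selected on their RNA-seq values in *M*-cKO and Ctrl cortices, out of 55153 genes in the RNA-seq table. Their rows were found by Ensembl identifier (ENSMUSG00000038704, ENSMUSG00000081965 and ENSMUSG00000046318) and were read in all 18 libraries. The RNA-seq difference between *M*-cKO and Ctrl is therefore given below as a description. Tests are given for footprints and for *F*-cKO, whose libraries the selection did not use. The *F*-cKO RNA tests share their Ctrl libraries with the selection, so they are not independent of it.

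The libraries came from cerebral cortices of E15.5 mice, with 3 libraries per group in each of RNA-seq and Ribo-seq. The Ctrl group was labelled wild type, the *F*-cKO group carried Fto(f/f, Emx1-cre) and the *M*-cKO group Mettl3(f/f, Emx1-cre), and the labelled strain was C57BL/6 for all 3 groups. The study's methods give a mixed strain background for the floxed lines. *Emx1-Cre* recombines floxed alleles in the progenitors of the dorsal telencephalon and their progeny, so vessels, meninges, microglia and interneurons that migrate in from the ventral forebrain keep the gene in a bulk cortex. Because Ctrl mice were wild type, a comparison with Ctrl cannot tell the Cre allele and the background of the floxed lines apart from the loss of *Mettl3* or *Fto*. Both knockout groups carried Emx1-cre, so *M*-cKO and *F*-cKO do not differ by that allele, but they differ by floxed line. The labels number the replicates as biological repeats. The study's methods give the 3 Ribo-seq samples of E15.5 cortex as from "1 L", which is not explained and may mean 1 litter. *P* values therefore measure the spread between these libraries, which in Ribo-seq may not include the spread between litters.

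Mettl3 is the catalytic subunit of the complex that writes N6-methyladenosine on RNA, and Fto is an enzyme that removes methyl groups from RNA. Ccbe1 is a secreted protein with collagen-like and calcium-binding EGF domains. It acts with the protease Adamts3 in the processing of the growth factor Vegfc, which signals through the receptor Flt4, and it is known for its need in the growth of lymphatic vessels. Aspdh is named for its aspartate dehydrogenase domain, and microbial enzymes with this activity supply iminoaspartate for the synthesis of NAD. *Gm11620* is a predicted gene that RefSeq classes as a pseudogene.

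*Aspdh* lies on chromosome 7 of GRCm38.p6 (44465435 to 44467751, plus strand) and is protein coding. *Gm11620* lies on chromosome 11 (105162890 to 105167164). The sequence of the *Aspdh* promoter region is shown as that of the protein-coding gene of the pair whose RNA was higher in *M*-cKO. It runs from 250 bases before to 50 bases after the RefSeq gene start (chr7:44465185-44465484, GRCm38.p6, plus strand), with CG dinucleotides in capitals.

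Aspdh promoter: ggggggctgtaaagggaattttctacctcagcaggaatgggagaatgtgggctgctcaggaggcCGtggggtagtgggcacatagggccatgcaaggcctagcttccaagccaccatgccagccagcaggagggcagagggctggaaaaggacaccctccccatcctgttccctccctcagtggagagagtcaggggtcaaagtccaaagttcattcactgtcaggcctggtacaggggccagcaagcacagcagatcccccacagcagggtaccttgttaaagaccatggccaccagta

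The window held 1 CG dinucleotide, compared with a median of 7 over 32851 mouse promoter windows of the same length, and 14.1% of these windows held as few. Its G and C content was 58.3%, above the median of 52.7%. The letters TATAAA were on neither strand of the window, and 13.6% of all windows held them.

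Total counts per library ranged from 18504094 to 22592406 in RNA-seq and from 10973699 to 35853227 in Ribo-seq. *Fto* RNA in the *F*-cKO libraries was 3.26, 7.56 and 2.43 FPKM, compared with 10.8, 11.2 and 8.37 FPKM in Ctrl, so replicate 2 retained more than the others. *Fto* footprints were lower in all *F*-cKO libraries than in Ctrl (3.91, 2.11 and 4.04 RPKM against 25.9, 22.0 and 17.6 RPKM). *Mettl3* RNA was higher in *M*-cKO (8.61, 7.82 and 8.34 FPKM) than in Ctrl (5.84, 6.43 and 5.07 FPKM). A count over a whole gene includes exons that the deletion leaves, so this RNA value does not check the label. *Mettl3* footprints were lower in *M*-cKO (6.78, 6.02 and 6.40 RPKM) than in Ctrl (9.16, 9.25 and 9.93 RPKM). The Ribo-seq library of *F*-cKO replicate 2 stood apart. Its summed level of 6 endothelial markers was 86.2 RPKM, whereas the other 8 Ribo-seq libraries ranged from 4.35 to 8.997 RPKM. The footprint fold changes of the 3 genes that involve *F*-cKO are therefore given with and without this library.

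*Aspdh* RNA was low and even in Ctrl, at 3.79, 4.07 and 4.11 FPKM. In *M*-cKO it was 22.5, 22.2 and 19.8 FPKM. All 3 *M*-cKO libraries were far above every Ctrl and *F*-cKO library. Mean RNA was 5.39-fold higher in *M*-cKO (21.5 ± 1.49 FPKM, SD, n = 3) than in Ctrl (3.99 ± 0.171 FPKM, SD, n = 3), and the fitted log2 fold change was 2.42 ± 0.10 (SE). The counts behind these levels were 113 to 127 reads in Ctrl and 643 to 751 reads in *M*-cKO.

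*Gm11620* RNA was low in Ctrl, with 14, 12 and 15 reads (0.339, 0.307 and 0.434 FPKM). In *M*-cKO it had 205, 219 and 186 reads (4.90, 5.88 and 4.56 FPKM). The groups did not overlap, and the mean was 14.2-fold higher, with a fitted log2 fold change of 3.82 ± 0.21 (SE). In Ctrl the pseudogene ranked at the 9.2 percentile of FPKM among tested genes, whereas *Aspdh* ranked at 46.6 and *Ccbe1* at 43.1.

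*Ccbe1* RNA moved the other way. It was 3.15, 3.12 and 3.95 FPKM in Ctrl and 0.750, 0.630 and 0.747 FPKM in *M*-cKO. The highest *M*-cKO library was below the lowest Ctrl library, and the *M*-cKO mean was 20.8% of the Ctrl mean. The fitted log2 fold change was -2.27 ± 0.13 (SE), from 629 to 703 reads in Ctrl and 121 to 162 reads in *M*-cKO.

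**Figure D1:**
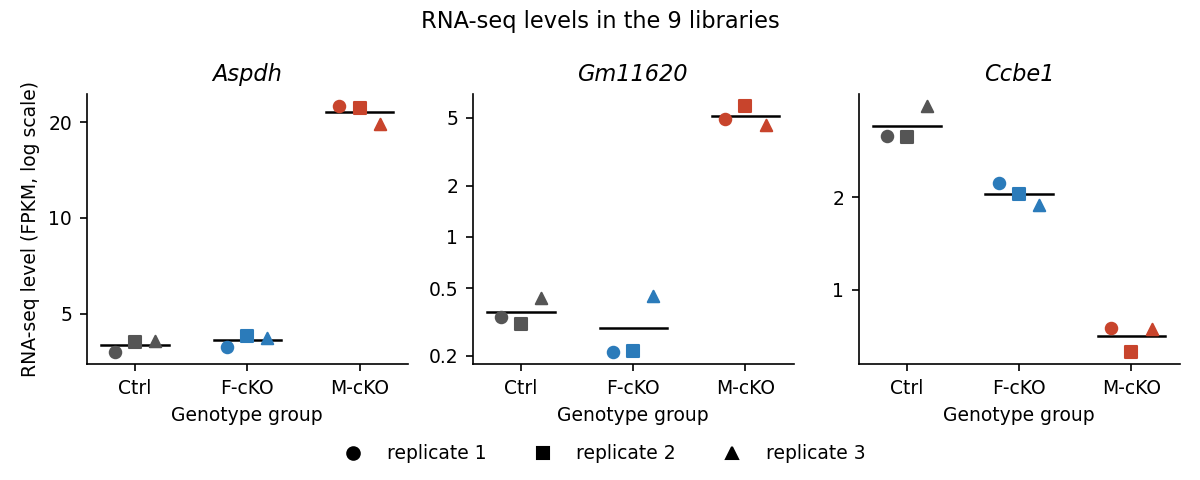
RNA-seq levels of the 3 genes in FPKM (log axis, different range per panel) by genotype group; each point is a library, its shape gives the replicate number, and lines are group means. *M*-cKO libraries lie above all others for *Aspdh* and *Gm11620* and below all others for *Ccbe1*, and *F*-cKO libraries of *Ccbe1* lie between.

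The selection used this comparison of *M*-cKO and Ctrl, in which 16968 genes were tested, so the places of the 3 genes in it are a description. By *P* value the gene next after them was *Mrpl43*, a mitochondrial ribosomal protein gene with a log2 fold change of 1.15 ± 0.07 (SE). By size of the fold change they were not the 3 largest. *Gm11620* ranked 4 of 16968 by absolute log2 fold change, *Aspdh* ranked 39 and *Ccbe1* ranked 58. In this comparison 15.5% of tested genes were called higher and 14.1% were called lower, which is given for scale since the selection used the same values.

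In *F*-cKO cortices *Aspdh* RNA was 3.93, 4.26 and 4.19 FPKM, with 1 library inside the range of Ctrl and 2 just above it. The log2 fold change was 0.04 ± 0.14 (SE), and the adjusted *P* was 0.881 (edgeR, quasi-likelihood, Benjamini-Hochberg). *Gm11620* had 8, 8 and 18 reads in *F*-cKO (0.211, 0.212 and 0.452 FPKM), which overlapped Ctrl. The minimum count was reached in 1 *F*-cKO and 3 Ctrl libraries. With no filter the log2 fold change was -0.30 ± 0.46 (SE, adjusted *P* = 0.735 by edgeR), and at these counts a modest change was not detectable.

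*Ccbe1* RNA fell in *F*-cKO as well. Its level was 2.22, 2.05 and 1.89 FPKM, and all 3 libraries were below every Ctrl library and above every *M*-cKO library. The mean was 60.3% of Ctrl. The log2 fold change was -0.74 ± 0.11 (SE, adjusted *P* = 0.00414 by edgeR), a direction shared with *M*-cKO. Across the 16944 genes tested in this comparison 9.57% were called lower. Without the *F*-cKO replicate 2 that retained more *Fto* RNA, the log2 fold change of *Ccbe1* was -0.74 ± 0.14 (SE, adjusted *P* = 0.0207 by edgeR). The comparison uses the same Ctrl libraries as the one that selected the genes, so the values of both knockouts are not independent.

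The knockouts were also set against each other without the Ctrl libraries, as a description since *M*-cKO libraries were part of the selection. *Aspdh* RNA was higher in *M*-cKO than in *F*-cKO by a log2 fold change of 2.37 ± 0.11 (SE) and *Gm11620* RNA by 4.10 ± 0.28 (SE). *Ccbe1* RNA was lower in *M*-cKO by a log2 fold change of -1.54 ± 0.12 (SE).

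Ribo-seq counts the fragments that ribosomes protect from RNase and gives the level of footprints on each RNA. Footprints were the first measure that the selection did not use. In the deposited count table *Ccbe1* had a count in every library, whereas *Aspdh* and *Gm11620* had a count in *F*-cKO replicate 1 and blanks elsewhere. Their deposited RPKM values were complete in all 9 libraries. The blank counts were recovered from these RPKM values, and all recovered values were whole numbers within 0.01.

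*Aspdh* footprints were few in Ctrl, at 0.229, 0.297 and 0.434 RPKM (10, 11 and 16 fragments). In *M*-cKO they reached 5.74, 3.92 and 2.52 RPKM (139, 70 and 70 fragments). The groups did not overlap, and the *M*-cKO mean (4.06 ± 1.61 RPKM, SD, n = 3) was 12.7-fold that of Ctrl (0.320 ± 0.105 RPKM, SD, n = 3). A two-sided exact permutation test on RPKM gave *P* = 0.1, the smallest that 3 against 3 libraries allow. On recovered counts the log2 fold change was 3.64 ± 0.41 (SE). The minimum count was reached in 3 *M*-cKO libraries and 1 Ctrl library, so the gene entered this fit through the group where it was high and no *P* value of it is given. With no filter on low counts the log2 fold change was 3.61 ± 0.41 (SE, adjusted *P* = 0.00196 by edgeR), and 2.85% of the 25989 genes in that test were called higher.

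*Gm11620* footprints were 0.0547, 0.0861 and 0.151 RPKM in Ctrl, which came from 3, 4 and 7 fragments. In *M*-cKO they were 1.74, 2.10 and 2.73 RPKM (53, 47 and 95 fragments). All *M*-cKO libraries exceeded all Ctrl libraries, with a 22.5-fold difference in means and an exact two-sided permutation *P* of 0.1. On recovered counts the log2 fold change was 4.45 ± 0.43 (SE), again with no *P* value, since 0 of 3 Ctrl libraries reached the minimum count. With no filter it was 4.42 ± 0.44 (SE, adjusted *P* = 0.00106 by edgeR). Fragments on a pseudogene were protected from RNase, and the count does not show that they were translated. Reads of a pseudogene can also be shared with a parent gene of like sequence, and no parent is named in the annotation used here.

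*Ccbe1* footprints fell with its RNA. They were 0.651, 0.685 and 0.910 RPKM in Ctrl (184, 164 and 217 fragments) and 0.160, 0.121 and 0.184 RPKM in *M*-cKO (25, 14 and 33 fragments). The *M*-cKO mean was 20.7% of Ctrl, close to the 20.8% of its RNA. The groups did not overlap (two-sided exact permutation *P* = 0.1 on RPKM). The share of all genes whose footprints separate in this way was not computed. On deposited counts the log2 fold change was -2.25 ± 0.25 (SE, adjusted *P* = 0.00504 by edgeR), where 7.5% of 14314 genes were called lower. For each of the 3 genes RNA and footprints differed from Ctrl in the same direction. When the *F*-cKO libraries were added to the fit to share an estimate of the spread, *Ccbe1* did not pass the threshold (adjusted *P* = 0.0949 by edgeR). With all 9 libraries and no filter *Aspdh* did not pass either (3.61 ± 0.81, SE, adjusted *P* = 0.136 by edgeR) and *Gm11620* did (4.42 ± 0.70, SE, adjusted *P* = 0.0344 by edgeR), where 0.186% of all genes were called higher.

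**Figure D2:**
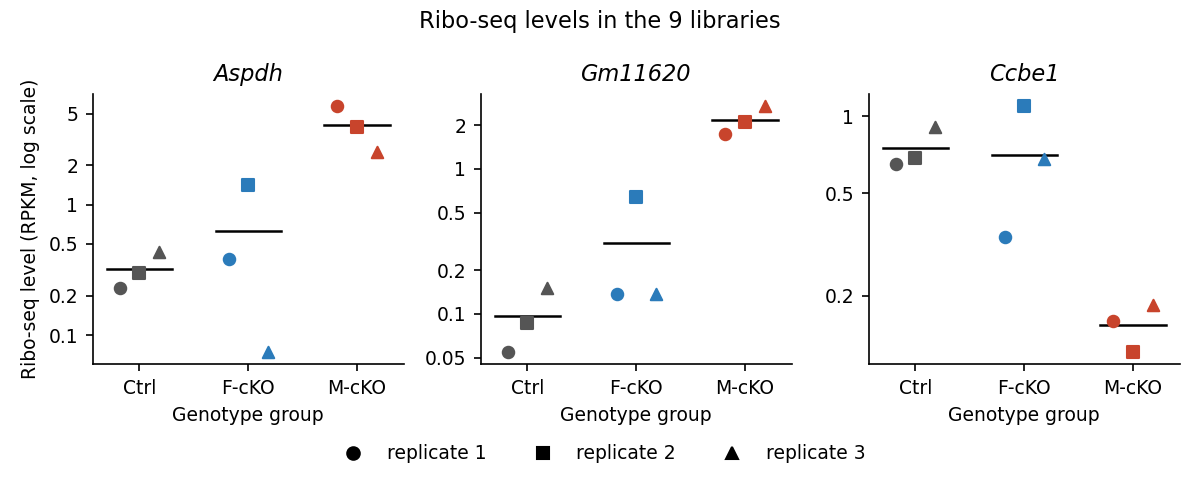
Ribo-seq levels of the 3 genes in RPKM (log axis, different range per panel) by genotype group; points are libraries, shapes give replicate numbers and lines are group means. *M*-cKO libraries do not overlap Ctrl for any of the 3 genes, and *F*-cKO replicate 2 (square) is the highest *F*-cKO library in each panel.

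In *F*-cKO the footprints were scattered. *Aspdh* was 0.386, 1.42 and 0.0742 RPKM (9, 21 and 3 fragments), from below the lowest to above the highest Ctrl library. Its log2 fold change on recovered counts was 0.93 ± 0.98 (SE, adjusted *P* = 0.784 by edgeR) and changed sign to -0.64 ± 0.74 (SE, adjusted *P* = 0.900 by edgeR) without *F*-cKO replicate 2. *Gm11620* was 0.137, 0.645 and 0.138 RPKM (4, 12 and 7 fragments). Its counts did not pass the filter for the edgeR fit, and the log2 ratio of mean RPKM was 1.66 with all libraries (two-sided exact permutation *P* = 0.3) and 0.50 without replicate 2.

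*Ccbe1* footprints in *F*-cKO were 0.338, 1.10 and 0.680 RPKM (51, 105 and 178 fragments), which overlapped Ctrl on both sides. The log2 fold change was -0.01 ± 0.49 (SE, adjusted *P* = 0.997 by edgeR), and it was -0.56 ± 0.35 (SE, adjusted *P* = 0.875 by edgeR) without replicate 2. The lower *Ccbe1* RNA of *F*-cKO was therefore not detected in footprints, although a change of the size of the RNA change lies within 2 standard errors of either estimate. This comparison called 0% of 14335 genes by edgeR. There were 318 genes with an unadjusted *P* below 0.05, and DESeq2 called 6. *Fto* footprints, with a log2 fold change of -2.68 ± 0.25 (SE), did not pass in this fit (adjusted *P* = 0.350 by edgeR). Without *F*-cKO replicate 2 *Fto* passed (-2.48 ± 0.18, SE, adjusted *P* = 0.0358 by edgeR) and was the 1 gene called of 14336, and it was again the 1 gene called when all 9 libraries were fitted (adjusted *P* = 0.0139 by edgeR).

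Footprints of *M*-cKO and *F*-cKO were compared directly. *Aspdh* was higher in every *M*-cKO library than in every *F*-cKO library, as was *Gm11620*, while *Ccbe1* was lower in every one. Such a separation has a two-sided exact permutation *P* of 0.1 on RPKM. The share of all genes that separate in this way was not computed, so it is a description. The log2 fold changes were 2.70 ± 0.99 (SE) for *Aspdh* and 2.86 ± 0.74 (SE) for *Gm11620* on recovered counts, with no *P* value, since they entered this fit through the *M*-cKO libraries and 1 of 3 *F*-cKO libraries reached the minimum count for each. With no filter the adjusted *P* values were 0.667 and 0.613 by edgeR. That of *Ccbe1* was -2.23 ± 0.55 (SE, adjusted *P* = 0.522 by edgeR). The edgeR fit called 0% of the 15617 genes in this comparison, and 1278 genes had an unadjusted *P* below 0.05. On recovered counts DESeq2 called 231 genes, *Ccbe1* among them (adjusted *P* = 0.0132). On deposited counts it called 200 genes, *Ccbe1* among them (adjusted *P* = 0.0174). Without *F*-cKO replicate 2 the log2 fold changes were 4.28 ± 0.74 (SE) for *Aspdh*, 3.99 ± 0.47 (SE) for *Gm11620* and -1.67 ± 0.41 (SE) for *Ccbe1*, and that of *Ccbe1* did not pass (adjusted *P* = 0.272 by edgeR). With no filter and without that library *Gm11620* passed (3.95 ± 0.52, SE, adjusted *P* = 0.0180 by edgeR), where 0.136% of all genes were called higher, and *Aspdh* did not (4.25 ± 0.69, SE, adjusted *P* = 0.0520 by edgeR).

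**Figure D3:**
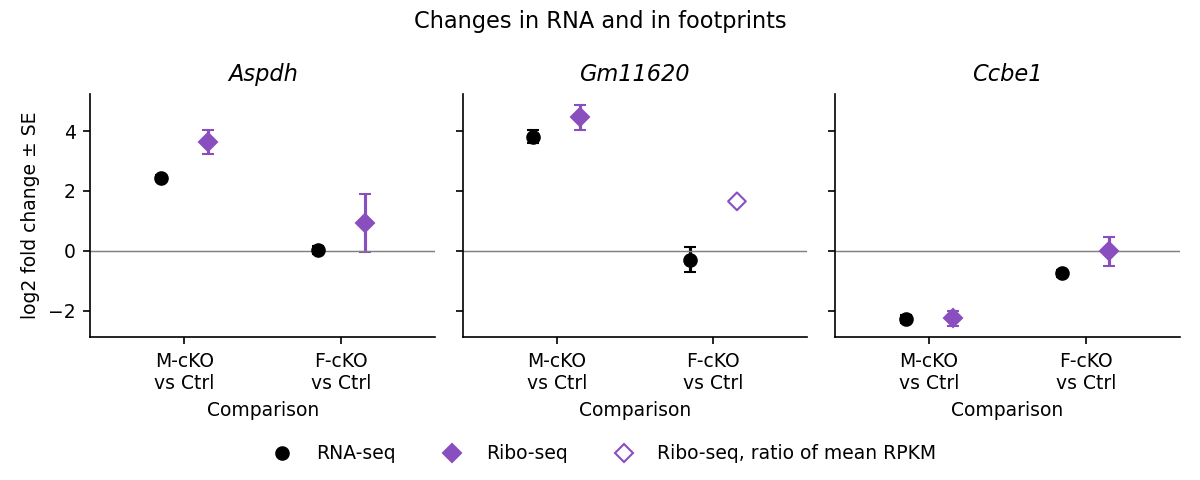
Fitted log2 fold changes with SE bars for RNA-seq (circles) and Ribo-seq (diamonds) in *M*-cKO and *F*-cKO, each against Ctrl; the open diamond is a log2 ratio of mean RPKM with no SE, and Ribo-seq of *Aspdh* and *Gm11620* uses recovered counts. RNA and footprints of each gene lie on the same side of 0 in *M*-cKO, and in *F*-cKO the RNA of *Ccbe1* (-0.74) lies away from 0.

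TE, the footprint level per RNA level, was described without a test because it contains the RNA values of the selection. For *Ccbe1* the ratio of mean RPKM to mean FPKM was 0.220 in Ctrl and 0.218 in *M*-cKO, and the fitted log2 change in TE was 0.09 ± 0.27 (SE). For *Aspdh* the ratio was 0.0802 in Ctrl and 0.189 in *M*-cKO, with a log2 change of 1.28 ± 0.39 (SE) on recovered counts. *Gm11620* had ratios of 0.271 and 0.428 and a log2 change of 0.70 ± 0.45 (SE). In *F*-cKO the log2 changes in TE were 0.70 ± 0.53 (SE) for *Ccbe1*, 0.75 ± 0.96 (SE) for *Aspdh* and 1.78 ± 0.94 (SE) for *Gm11620*, and without *F*-cKO replicate 2 they were 0.21 ± 0.37 (SE), -0.70 ± 0.65 (SE) and 0.60 ± 0.78 (SE).

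The genes next to each of the 3 genes changed less. Selection of the 3 genes on this comparison makes a smaller change in other genes likely in advance. The nearest gene after *Aspdh* is *Josd2*, a deubiquitinase gene that starts 228 bases past its end on the same strand. *Josd2* was 11.5 to 13.4 FPKM in Ctrl and 9.95 to 11.2 FPKM in *M*-cKO, and its log2 fold change of -0.25 ± 0.09 (SE) did not pass (adjusted *P* = 0.0542 by edgeR). On the other side *Lrrc4b*, which encodes a synaptic adhesion protein, ends 2083 bases before *Aspdh* on the same strand. *Lrrc4b* ranged between 92.8 and 98.4 FPKM in Ctrl and between 127.8 and 132.8 FPKM in *M*-cKO. It rose by a log2 fold change of 0.43 ± 0.06 (SE, adjusted *P* = 0.000304 by edgeR), and its footprints rose too (0.64 ± 0.11, SE, adjusted *P* = 0.0155 by edgeR). Whether reads that run past *Lrrc4b* add to the count of *Aspdh* was not tested. Of 18 genes tested within 250 kb of *Aspdh* 5 were called, 2 higher (*Lrrc4b* and *Pold1*) and 3 lower (*Shank1*, *Syt3* and *Fam71e1*). In this comparison 29.6% of all tested genes were called. The log2 fold changes of all 18 neighbours tested, called or not, lay between -0.98 and 0.43.

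Near *Gm11620* the kinase gene *Tlk2* starts 730 bases past its end. *Tlk2* was 8.85 to 9.59 FPKM in Ctrl and 9.04 to 9.89 FPKM in *M*-cKO, with a log2 fold change of 0.02 ± 0.06 (SE, adjusted *P* = 0.818 by edgeR). On the other side *Mettl2*, a gene for a methyltransferase of transfer RNA, had a log2 fold change of 0.09 ± 0.09 (SE, adjusted *P* = 0.465 by edgeR). Of 5 genes tested within 250 kb *Mrc2*, which encodes a collagen receptor, was called (0.96 ± 0.14, SE, adjusted *P* = 0.000501 by edgeR). The strand of *Gm11620* is not in the tables used here, and whether the counting used strand is not given in the sources used here.

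*Ccbe1* is a protein-coding gene on chromosome 18 whose gene body spans 234984 bases. None of the 3 genes shares a chromosome with *Mettl3* (chromosome 14), *Fto* (chromosome 8) or *Emx1* (chromosome 6). Around *Ccbe1* 4 genes were tested within 250 kb. The nearest on each side were *Lman1*, a cargo receptor of the secretory pathway (log2 fold change 0.10 ± 0.07, SE, adjusted *P* = 0.342 by edgeR), and *Pmaip1*, which encodes the apoptosis protein Noxa (0.22 ± 0.32, SE, adjusted *P* = 0.645 by edgeR). The neuropeptide gene *Grp*, 170255 bases away, fell in *M*-cKO (-1.41 ± 0.23, SE, adjusted *P* = 0.00107 by edgeR) and in *F*-cKO (-1.76 ± 0.17, SE, adjusted *P* = 0.00294 by edgeR). *Sec11c*, a signal peptidase subunit gene, also fell in both (-0.34 ± 0.10, SE, adjusted *P* = 0.0269, and -0.41 ± 0.13, SE, adjusted *P* = 0.0478 by edgeR).

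**Figure D4:**
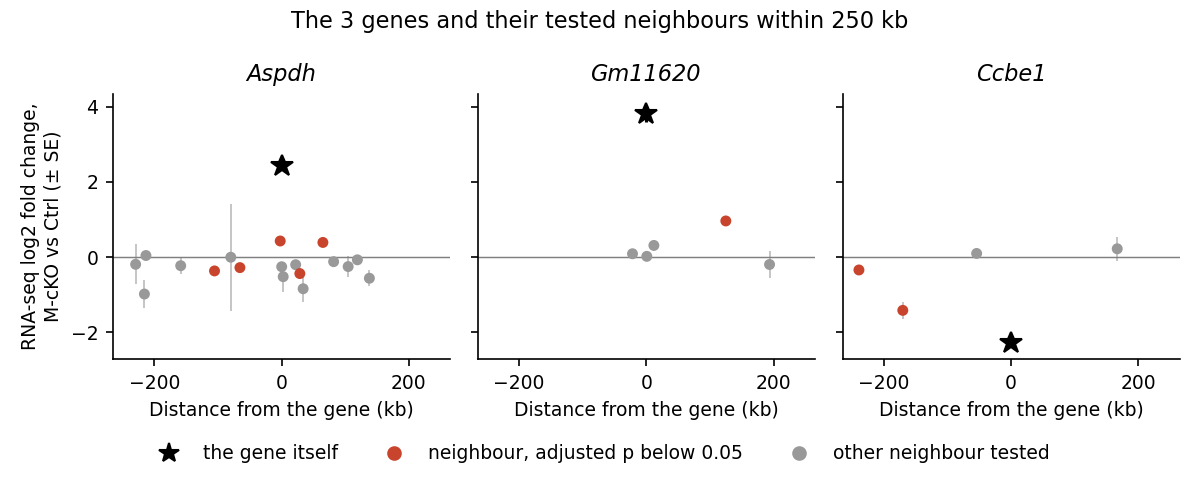
RNA-seq log2 fold change between *M*-cKO and Ctrl (± SE) of the 3 genes (stars) and of the tested genes within 250 kb on either side, plotted by the gap to the gene in kb; coloured points have an adjusted *P* below 0.05 by edgeR. Neighbours range from -0.98 to 0.43 around *Aspdh*, from -0.19 to 0.96 around *Gm11620* and from -1.41 to 0.22 around *Ccbe1*.

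*Ccbe1* acts in a pathway whose other genes were read as a list. Of 26 tested genes of VEGF-C signalling and lymphatic growth 3 were lower and 0 were higher in *M*-cKO RNA by edgeR (5 lower and 0 higher at an unadjusted *P* below 0.05), beside 14.1% of all tested genes lower and 15.5% higher. The median log2 fold change of the list was 0.07, beside -0.01 over all genes tested. The partners of Ccbe1 were among those not called. *Vegfc*, the growth factor itself, had a log2 fold change of 0.07 ± 0.18 (SE, adjusted *P* = 0.795 by edgeR), *Adamts3* had 0.07 ± 0.08 (SE, adjusted *P* = 0.601 by edgeR) and *Flt4* had 0.14 ± 0.18 (SE, adjusted *P* = 0.594 by edgeR). The genes that fell were *Adamts2*, a procollagen protease (-1.19 ± 0.19, SE, adjusted *P* = 0.00109 by edgeR), *Nrp1*, a receptor for semaphorins and VEGF (-0.56 ± 0.07, SE, adjusted *P* = 0.000193 by edgeR), and *Vegfa*, the main growth factor of blood vessels (-0.48 ± 0.08, SE, adjusted *P* = 0.00138 by edgeR). In footprints of the list *Nrp1* alone was called (-0.79 ± 0.21, SE, adjusted *P* = 0.0444 by edgeR), of 24 genes tested and with 14.6% of all genes called.

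In *F*-cKO RNA 1 gene of this list was higher and 5 were lower of 26 tested, with 21.1% of all genes called. The protease partner *Adamts3* was the gene that rose (0.54 ± 0.07, SE, adjusted *P* = 0.00341 by edgeR), whereas *Vegfc* (-0.20 ± 0.19, SE, adjusted *P* = 0.486) and *Flt4* (-0.15 ± 0.19, SE, adjusted *P* = 0.594) did not pass by edgeR.

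Secreted matrix genes with EGF or collagen-like domains, the protein class of Ccbe1, went both ways in *M*-cKO RNA. Of 20 tested 4 were higher and 5 were lower, beside 15.5% and 14.1% of all tested genes, and the median log2 fold change was 0.11. *Egfl6* (-1.67 ± 0.26, SE, adjusted *P* = 0.000781), the fibrillin gene *Fbn2* (-0.60 ± 0.07, SE, adjusted *P* = 0.000146) and the fibulin gene *Fbln2* (-0.58 ± 0.16, SE, adjusted *P* = 0.0179) fell by edgeR. *Fbln1* (0.58 ± 0.09, SE, adjusted *P* = 0.000898), *Emilin1* (0.57 ± 0.17, SE, adjusted *P* = 0.0274) and *Fbn1* (0.37 ± 0.12, SE, adjusted *P* = 0.0312) rose by edgeR. None of the called genes of this list reached the fold change of *Ccbe1*, which was itself selected on this comparison. In *F*-cKO 6 were lower and 0 were higher of 19 tested by edgeR (9 lower and 0 higher at an unadjusted *P* below 0.05), beside 9.57% of all tested genes lower. In *M*-cKO footprints 1 was higher and 1 was lower of 18, where 14.6% of all genes were called.

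Genes of NAD synthesis, the pathway that microbial aspartate dehydrogenases feed, were read as another list. In *M*-cKO RNA 13 of its 22 genes with a row were tested, with 1 higher and 1 lower, beside 29.6% of all tested genes called, and a median log2 fold change of -0.06. *Slc25a51*, the mitochondrial NAD carrier, rose (0.37 ± 0.06, SE, adjusted *P* = 0.000720 by edgeR), and *Nampt*, the rate-limiting enzyme of NAD salvage, fell (-0.35 ± 0.09, SE, adjusted *P* = 0.0120 by edgeR). *Qprt*, which uses quinolinate, was too low to be tested (0.0878 FPKM in Ctrl). *Nadsyn1*, NAD synthetase, had a log2 fold change of -0.24 ± 0.18 (SE, adjusted *P* = 0.362 by edgeR). In *F*-cKO RNA 0 of 13 genes were called by edgeR, and 0 by DESeq2, and 3 genes had an unadjusted *P* below 0.05, beside 21.1% of all genes called by edgeR. In *M*-cKO footprints 1 of 12 was lower, beside 7.5% of all genes.

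Genes that make, use or carry aspartate were read as a further list, of which 5 were higher and 3 were lower of 19 tested in *M*-cKO RNA (median log2 fold change 0.11), beside 15.5% and 14.1% of all tested genes. *Got1*, the cytosolic aspartate aminotransferase, rose by a small amount (0.21 ± 0.06, SE, adjusted *P* = 0.0270 by edgeR), and the mitochondrial *Got2* did not pass (0.11 ± 0.06, SE, adjusted *P* = 0.188 by edgeR). The largest rises were those of *Slc25a13*, an aspartate-glutamate carrier (0.54 ± 0.18, SE, adjusted *P* = 0.0424), *Cad*, which starts pyrimidine synthesis (0.42 ± 0.09, SE, adjusted *P* = 0.00697), and the glutamate transporter *Slc1a2* (0.38 ± 0.09, SE, adjusted *P* = 0.00992) by edgeR. The transporters *Slc1a1* (-0.55 ± 0.10, SE, adjusted *P* = 0.00191) and *Slc1a3* (-0.34 ± 0.07, SE, adjusted *P* = 0.00406) and the purine enzyme *Adss* (-0.20 ± 0.06, SE, adjusted *P* = 0.0385) fell by edgeR. All were well below the log2 fold change of *Aspdh*, which was itself selected on this comparison. In *F*-cKO RNA 1 gene was higher and 2 were lower of 19, with 21.1% of all genes called, and in *M*-cKO footprints 1 of 20 was lower, beside 7.5% of all genes.

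The genes whose pattern over the 9 RNA-seq libraries was most like that of each gene were listed by Pearson's r of log2 CPM among 17376 genes, as a description. The points share 3 groups, and r is high for any gene that differs cleanly in *M*-cKO. For *Aspdh* they were *Mrps2* (r = 0.998), *Ckap4* (0.997), *Stk11* (0.995), *Ddx28* (0.994) and *Rnf113a2* (0.993). Their log2 fold changes in *M*-cKO lay between 0.57 and 1.07, below that of *Aspdh*, which was itself selected on this comparison. For *Gm11620* they were *Zkscan5* (r = 0.988), *Imp3* (0.987), *Aspdh* itself (0.985), *Mroh2a* (0.984) and *Phax* (0.984). For *Ccbe1* they were *2210016L21Rik* (r = 0.991), *Kif5a*, a neuronal kinesin (0.990), *Tnc*, the matrix glycoprotein tenascin C (0.988), *Clstn2* (0.987) and *Atp6v1d* (0.985). Among the last 5 genes *Tnc* had the largest change, with mean levels of 32.6 FPKM in Ctrl, 21.3 FPKM in *F*-cKO and 10.6 FPKM in *M*-cKO.

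Markers of the cells that a cortex holds were read beside the 3 genes, and the share of all tested genes called in *M*-cKO RNA was 15.5% for higher and 14.1% for lower. Dorsal cortex identity was present in every library, with a summed level of its 4 markers between 249.0 and 334.7 FPKM. Markers of interneurons and the ganglionic eminence were higher in *M*-cKO RNA for 8 of 8 genes tested (summed level 86.7 to 87.7 FPKM in Ctrl, 121.7 to 164.2 FPKM in *M*-cKO), and *Dlx1* had a log2 fold change of 0.66 ± 0.09 (SE, adjusted *P* = 0.000258 by edgeR). In footprints 5 of the 8 were higher by edgeR and 8 of 8 by DESeq2, beside 14.6% of all genes called by edgeR, and the summed level was 39.3 to 59.0 RPKM in Ctrl and 65.5 to 127.4 RPKM in *M*-cKO. The sums were higher in the same *M*-cKO libraries as *Aspdh* and *Gm11620*, and their part in the RNA and footprint values of these genes was not tested. In a bulk cortex more or fewer cells of a type and more or less RNA per cell cannot be told apart. Deep-layer neuron markers were higher for 5 of 6 genes and upper-layer neuron markers lower for 4 of 6. Of the other lists 3 of 8 radial glia markers were higher and 2 lower, 2 of 5 intermediate progenitor markers were higher, 3 of 6 subplate and Cajal-Retzius markers were higher and 2 lower, and 2 of 7 erythroid markers were higher. These were the embryonic globin genes *Hbb-y* (0.983 FPKM in Ctrl, 9.89 in *M*-cKO and 30.96 in *F*-cKO) and *Hba-x* (0.466, 1.66 and 3.62 FPKM). *Hbb-y* rose by a log2 fold change of 3.26 ± 0.74 (SE, adjusted *P* = 0.00707 by edgeR) in *M*-cKO and 4.90 ± 1.06 (SE, adjusted *P* = 0.0126 by edgeR) in *F*-cKO, and *Hba-x* by 1.79 ± 0.47 (SE, adjusted *P* = 0.0150 by edgeR) and 2.91 ± 0.77 (SE, adjusted *P* = 0.0258 by edgeR). Their part in the values of the 3 genes was not tested.

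Markers of vessels and of the cells around them were not called in *M*-cKO RNA. By edgeR, which called 29.6% of all tested genes, 0 of 6 meningeal, 0 of 6 endothelial, 0 of 3 lymphatic endothelial, 0 of 6 microglial and 0 of 5 choroid plexus markers were called, and DESeq2 called 0 of each list as well. At an unadjusted *P* below 0.05 there was 1 endothelial and 1 microglial marker, both lower, and 0 of the other lists. Liver markers were too low to test, with a summed level of at most 1.79 FPKM in any library. In *F*-cKO RNA 9.57% of all tested genes were lower. Of 6 meningeal markers 3 were lower by edgeR, 1 by DESeq2 and 0 by edgeR with all 9 libraries in the fit. Their summed level was 2.97 to 9.78 FPKM beside 11.8 to 22.2 FPKM in Ctrl. The endothelial sum was 36.4 to 41.9 FPKM beside 48.6 to 52.3 FPKM in Ctrl, and of its 6 markers *Cldn5*, a tight junction gene, was lower (-0.63, adjusted *P* = 0.00389 by edgeR). The other 5 summed to 13.0 to 14.4 FPKM beside 12.95 to 13.8 FPKM in Ctrl, and the median log2 fold change of the 6 was 0.01. The lymphatic endothelial sum was 3.78 to 4.13 FPKM beside 4.78 to 5.61 FPKM in Ctrl, and of 3 tested markers *Lyve1*, a hyaluronan receptor gene, was lower (-1.96, adjusted *P* = 0.0183 by edgeR). Without *Lyve1* the sum was 3.40 to 3.85 FPKM and overlapped Ctrl (3.51 to 4.10 FPKM). Most of it was *Prox1* (mean 3.16 FPKM in *F*-cKO and 3.30 FPKM in Ctrl), so the sum says little about the other markers. The meningeal sum, *Cldn5* and *Lyve1* were thus lower in the same *F*-cKO libraries as *Ccbe1*, whereas the sums of the other vessel markers overlapped Ctrl. The part of these markers in the lower *Ccbe1* RNA was not tested. Other lists moved in these libraries too, beside 21.1% of all genes called. Deep-layer neuron markers were higher for 5 of 6 genes (232.6 to 239.1 FPKM beside 155.8 to 180.0 FPKM in Ctrl) and intermediate progenitor markers for 3 of 5 by edgeR and 5 of 5 by DESeq2 (268.2 to 320.9 FPKM beside 156.0 to 236.2 FPKM). Of radial glia markers 4 of 8 were higher and 2 lower, of interneuron markers 4 of 8 were higher, of subplate and Cajal-Retzius markers 2 of 6 were higher and 2 lower, of upper-layer markers 1 of 6 was lower, and of erythroid markers 2 of 7 were higher and 1 lower. Their part in the *Ccbe1* RNA of *F*-cKO was not tested either. In *M*-cKO RNA the meningeal sum spanned 6.06 to 30.5 FPKM and overlapped Ctrl, and its part in the *Ccbe1* RNA was not tested. In *M*-cKO footprints the meningeal sum was 2.90 to 16.6 RPKM beside 13.4 to 25.7 RPKM in Ctrl, and its part in the *Ccbe1* footprints was not tested.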

How the data were processed

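RNA-seq and Ribo-seq of E15.5 cortices were measured in 18 libraries, grouped by genotype label. Genome build mm10 and the tools HISAT2 2.0.5, TopHat2, HTSeq and DESeq2 1.14.1 are named in the submitters' processing notes. The authors aligned 150 bp paired reads with HISAT2 and deposited RNA-seq counts and FPKM. For Ribo-seq the authors mapped fragments with TopHat2, counted them with HTSeq and deposited counts and RPKM. The annotation and the strand setting are not given in the sources used here. Ribo-seq counts were blank in 8 of 9 libraries for 40490 of 54838 genes. Where the remaining library had fragments, counts were recovered from RPKM (12053 genes, 0.232% of fragments), a choice made after seeing the data.

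Counts were fitted in R 4.3.3 with edgeR 4.0.16 (filterByExpr with minimum count 10 and total 15, TMM, quasi-likelihood test) over the 6 libraries of each comparison, with Benjamini-Hochberg adjustment over all genes tested and a threshold of 0.05. The fits were tested on simulated data. The change in TE was fitted as an assay-by-genotype term over 12 libraries. RPKM means of genes with blank counts were compared by two-sided exact permutation tests. The depth sets the precision: intervals and SEs of genes with under 20 fragments are wide. Alternatives were DESeq2 1.42.0, RLE scaling, no filter, a replicate block, all 9 libraries, FPKM or RPKM ratios with pseudocounts of 0.1 and 1, and each library left out. Symbols, coordinates and the promoter came from RefSeq tables of GRCm38.p6 (54723 of 55153 genes matched).

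The 3 genes and all lists were chosen with earlier results of these data known. Genes named beside them are the nearest tested gene on each side and each called neighbour within 250 kb, at most 3 called genes per list and direction, 7 list genes fixed by name, the 5 genes of highest r, and at most 2 genes per marker list.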

Additional observations from a re-analysis of the deposited data

How the results depend on the processing

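Directions and calls of the 3 genes were recomputed under the alternatives that could be fitted for each, in 327 values of 29 results. Of these values 296 kept the direction and the side of the threshold or moved by less than the spread between replicates. The 296 include the log2 change in TE of *Aspdh* in *F*-cKO, which changed sign from 0.75 to -0.70 without *F*-cKO replicate 2. With all 9 libraries in the fit, *Ccbe1* footprints in *M*-cKO against Ctrl did not pass (-2.23), and the log2 fold changes were 3.66 for *Aspdh* and 4.47 for *Gm11620*. With DESeq2 footprints of *M*-cKO against *F*-cKO passed for *Ccbe1* (-2.24). The value of *Gm11620* was 2.87, and its side of the threshold says nothing there, since it passed the filter through the *M*-cKO libraries. The same holds for *Aspdh* and *Gm11620* in the other filtered fits of *M*-cKO footprints, with all 9 libraries too. With no filter, in fits added after seeing the data, *Aspdh* in *M*-cKO against Ctrl did not pass with all 9 libraries (3.61), and without *F*-cKO replicate 2 *Gm11620* in *M*-cKO against *F*-cKO passed (3.95) and *Aspdh* in *F*-cKO against Ctrl was -0.67. The causes were not tested. TE was not refitted with all 9 libraries or pseudocounts, ratios of mean RPKM were recomputed with pseudocounts and left-out libraries only, and *Gm11620* footprints in *F*-cKO against Ctrl did not pass the filter for a count fit.

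A pseudocount shrinks the log2 ratio of low values by construction. With a pseudocount of 1 on FPKM it was 2.17 (*Aspdh*), 2.17 (*Gm11620*) and -1.37 (*Ccbe1*) in *M*-cKO against Ctrl, 2.13, 2.24 and -0.84 in *M*-cKO against *F*-cKO, and -0.53 for *Ccbe1* in *F*-cKO. On RPKM it was 1.94, 1.54 and -0.60 in *M*-cKO against Ctrl, 1.29 (*Gm11620*) and -0.56 (*Ccbe1*) in *M*-cKO against *F*-cKO, and 0.25 for *Gm11620* in *F*-cKO. With 0.1 *Gm11620* was 3.50 on FPKM and 3.54 on RPKM and *Ccbe1* was -1.74 on RPKM in *M*-cKO against Ctrl.

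With 1 library left out at a time, *Aspdh* footprints in *F*-cKO ranged from -0.48 to 1.49 (mean RPKM) and -0.64 to 1.55 (recovered counts), *Ccbe1* footprints in *F*-cKO from -0.56 to 0.35, *Gm11620* RNA in *M*-cKO against *F*-cKO from 3.92 to 4.58 and *Gm11620* TE in *F*-cKO from 0.60 to 2.69. The sign of *Aspdh* turned without *F*-cKO replicate 2, and that of *Ccbe1* without Ctrl replicate 3 or *F*-cKO replicates 1 or 3.

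Same-numbered libraries did not deviate together in every pair (correlation of deviations -0.278 to 0.163), so no pairing by number was assumed. With 3 libraries per group this check cannot exclude a pairing. A replicate block changed no call of *Ccbe1* (adjusted *P* by edgeR 0.0216 for RNA in *F*-cKO and 0.0118 for footprints in *M*-cKO), but over all genes it lowered the calls from 3576 to 2130 in *F*-cKO RNA, from 2093 to 1319 in *M*-cKO footprints and from 2082 to 1350 with recovered counts.

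Over all genes, calls in *M*-cKO footprints were 35 with all 9 libraries and 177 to 2547 without 1 library (fewest without Ctrl replicate 2), and with recovered counts 51 with all 9 libraries, 3173 with DESeq2 and 150 to 2515 without 1 library. *F*-cKO RNA fell from 3576 calls to 1543 without Ctrl replicate 3 and 1960 without *F*-cKO replicate 2, and *M*-cKO against *F*-cKO RNA from 4599 to 2767 without *F*-cKO replicate 2. For footprints of *M*-cKO against *F*-cKO the counts were 0 by edgeR, 200 by DESeq2 and 25 with all 9 libraries. Of list counts in *M*-cKO footprints, those of aspartate metabolism (1 to 5), VEGF-C (1 to 2), radial glia (2 to 4), intermediate progenitors (0 to 2), upper-layer neurons (2 to 3), interneurons (5 to 8), meninges (0 to 1) and lymphatic endothelium (0 to 1) grew with DESeq2, and all list calls in *M*-cKO footprints were 0 with all 9 libraries. In *F*-cKO RNA meningeal calls were 3 by edgeR, 1 by DESeq2 and 0 with all 9 libraries, intermediate progenitor calls were 3, 5 and 5 and upper-layer calls 1, 1 and 2, and in *M*-cKO RNA erythroid calls were 2, 2 and 1. Neighbours called within 100 kb were 4 for *Aspdh* and 0 for *Gm11620* and *Ccbe1*. By log2(FPKM + 0.1), 5 of 5 similar genes were shared for *Aspdh* and *Ccbe1* and 4 of 5 for *Gm11620*. Depth limits the footprints of *Aspdh* and *Gm11620* in Ctrl and *F*-cKO, which rest on 3 to 21 fragments per library.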
